A study of Mus musculus with 2 samples.

Results

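The 9 genes described here encode the CD3 chains (Cd3g, Cd3e and Cd3d), the zeta chain (Cd247) and constant regions of the T cell receptor (TCR) alpha, beta, delta and gamma chains (Trac, Trbc1, Trbc2, Trdc and Tcrg-C1). They were listed by name, and all 9 of 9 were found among the 32285 genes of both files. They were measured in mouse lung group 2 innate lymphoid cells (ILC2s) by droplet single-cell RNA sequencing, with 1 library from wild-type (WT) mice and 1 from Pac1-/- mice. The Pac1-/- mice lack PAC1, a phosphatase of MAP kinases that is encoded by Dusp2, and both groups were on the C57BL/6J background and matched for age and sex. Before sorting, a magnetic step took out most cells of other blood lineages (T, B, NK, myeloid and erythroid). ILC2s were then sorted as live cells without lineage markers and with CD90.2, ST2 and Sca-1. Cells of several mice were pooled for each library and the labels name no stimulation, so the spread between mice was not measured and genotype cannot be told apart from library.

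In T cells the TCR alpha and beta chains, or the gamma and delta chains, recognise antigen, and the CD3 and zeta chains carry the signal into the cell through their ITAM motifs, which Lck phosphorylates and Zap70 binds. A receptor reaches the surface only when the variable chains and the CD3 chains are made together, and variable chains are made only after V, D and J segments have been joined by the RAG recombinase. Innate lymphoid cells are defined by the lack of such a receptor, yet germline transcripts of the TCR constant regions, made without a joined variable segment, are known in them. Transcripts of these genes in an ILC2 sort could thus come from the ILC2s themselves or from T cells, and the comparisons below ask how the genes are found together, whether they go with activation genes and whether they go with genes of T cells.

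By the GENCODE annotation of GRCm38 the CD3 genes lay together, Cd3g at chr9:44969572-44980431 on the minus strand, Cd3d at chr9:44981786-44987339 on the plus strand and Cd3e at chr9:44998740-45009627 on the minus strand. Cd3g and Cd3d were 1354 bases apart and the group spanned 40056 bases. Cd247 was at chr1:165788681-165877277 on the plus strand. Trdc at chr14:54142851-54148868 and Trac at chr14:54220521-54224206, both on the plus strand, were 71652 bases apart. Trbc1 at chr6:41538218-41539881 and Trbc2 at chr6:41546730-41548352, also on the plus strand, were 6848 bases apart, and Tcrg-C1 was at chr13:19214103-19217024 on the plus strand. The setting for read strand is not given in the sources used here. Whether reads of Cd3e, Cd247 and Trdc were kept apart from those of genes annotated on the opposite strand is thus not known here. Those genes were Gm48719 for Cd3e, Pou2f1 and 4 others for Cd247, and Gm43434 and Trdv5 for Trdc. Gm48720 overlaps Cd3e and Gm16565 overlaps Cd247 on the same strand, where strand does not separate the reads.

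The beta constant genes are near-identical copies, and their sequences bear on how far their counts can be read separately. The first 120 coding bases, at chr6:41538218-41538337 for Trbc1 and chr6:41546730-41546849 for Trbc2, had no difference, whereas 11 of the last 60 coding bases differed. In the sequences from the annotated transcripts of GRCm38, capitals mark the bases that differ between the genes.
Trbc1 and Trbc2, first coding bases: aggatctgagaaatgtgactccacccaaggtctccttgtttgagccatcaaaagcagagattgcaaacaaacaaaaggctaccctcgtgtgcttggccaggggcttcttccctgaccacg
Trbc1, last coding bases: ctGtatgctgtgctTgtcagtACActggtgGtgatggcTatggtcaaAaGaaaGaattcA
Trbc2, last coding bases: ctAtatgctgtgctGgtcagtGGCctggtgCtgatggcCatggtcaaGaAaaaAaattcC
Over the 518 coding bases 23 differed (95.6% the same). Of all stretches of 50 bases in the Trbc1 transcript, 41.1% were also in Trbc2, but none of the 251 in its last 300 bases were, which is the end that a 3′ library reads. A read from that end could be given to its own gene, and only some of those from further upstream could, so the split between Trbc1 and Trbc2 is uncertain in part.

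The gamma constant genes are copies as well. The first 120 coding bases of Tcrg-C1 are shown with those of Tcrg-C2, Tcrg-C3 and Tcrg-C4, because they show which copies could share reads. Capitals in Tcrg-C1 mark bases that differ in at least 1 other copy, and capitals in the others mark differences from Tcrg-C1.
Tcrg-C1 (chr13:19214103-19214222, plus strand): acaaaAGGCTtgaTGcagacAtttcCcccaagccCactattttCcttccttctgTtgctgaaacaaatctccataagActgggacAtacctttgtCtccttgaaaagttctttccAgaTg
Tcrg-C2 (chr13:19307432-19307551, minus strand): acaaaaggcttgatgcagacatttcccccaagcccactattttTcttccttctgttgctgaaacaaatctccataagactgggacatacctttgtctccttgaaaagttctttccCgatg
Tcrg-C3 (chr13:19260885-19261004, plus strand): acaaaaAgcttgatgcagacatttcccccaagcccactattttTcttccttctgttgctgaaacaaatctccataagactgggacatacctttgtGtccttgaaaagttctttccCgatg
Tcrg-C4 (chr13:19344558-19344677, plus strand): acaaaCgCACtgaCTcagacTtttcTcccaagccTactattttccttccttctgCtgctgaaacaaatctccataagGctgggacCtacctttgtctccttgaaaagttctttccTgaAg
Tcrg-C2 differed from Tcrg-C1 at 2 of these bases, Tcrg-C3 at 4 and Tcrg-C4 at 14. In the last 300 bases of the Tcrg-C1 transcript 21.9% of the 50-base stretches were also in Tcrg-C2, and none were in Tcrg-C3 or Tcrg-C4. Counts of Tcrg-C1 are therefore uncertain against Tcrg-C2, and its counts and those of Tcrg-C4 are not mixed over these stretches.

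Barcodes were analysed when they had 500 genes or more and no more than 10% of their counts from mitochondrial genes. They were 8394 of 10866 in WT and 7087 of 9495 in Pac1-/-, with 54579034 and 58338886 unique molecular identifiers (UMIs, counts of distinct captured molecules) and a median of 4186.5 and 5577 UMIs per cell. The libraries shared 29 barcode sequences. Dusp2 had 1419 UMIs in WT and 5 in Pac1-/-, and the ILC2 genes Gata3 and Il1rl1 had 65826 and 60710 UMIs in WT and 60376 and 57880 in Pac1-/-, so the libraries carried the genes of their labels. A level is given below in CPM, the UMIs of a gene per 1000000 UMIs of the library, which does not scale with transcript length in a 3′ library. A share of cells is given after every cell was thinned at random to 1500 UMIs, because deeper cells show more genes. Thinning kept 7634 WT cells and 6564 Pac1-/- cells. With 1 library per genotype no test was made between them, and each 95% interval covers counting error alone.

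The members differed widely in level, and the beta constant genes stood far above the others. In WT, Trbc1 was at 292 CPM (15962 UMIs), Trbc2 at 261 (14234 UMIs), Cd3g at 119 (6486 UMIs), Tcrg-C1 at 17.1 (936 UMIs) and Cd3e at 10.5 (573 UMIs). Trac followed at 8.08 CPM (441 UMIs), Cd247 at 7.71 (421 UMIs), Trdc at 5.28 (288 UMIs) and Cd3d at 4.23 (231 UMIs). In this order Trac and Cd247 had overlapping intervals, as did Trdc and Cd3d, and every other pair of neighbours was apart. In Pac1-/-, Trbc1 was at 463 CPM (26983 UMIs), Trbc2 at 386 (22544 UMIs), Cd3g at 93.7 (5464 UMIs), Tcrg-C1 at 52.3 (3050 UMIs) and Trdc at 10.7 (627 UMIs). There Cd247 was at 8.43 (492 UMIs), Cd3e at 5.88 (343 UMIs), Trac at 3.05 (178 UMIs) and Cd3d at 2.25 (131 UMIs), and Trac and Cd3d were the neighbours whose intervals overlapped. The leading 4 genes stood in the same order in both libraries. Trdc, below Cd3e, Trac and Cd247 in WT, stood above them in Pac1-/-. Summed, the members took 725 CPM in WT and 1025 in Pac1-/-, of which the beta constant genes gave 76.3% and 82.8%. Among the CD3 chains Cd3g gave 89% and 92% of the UMIs, although Cd3e and Cd3d encode chains that the surface complex needs as well.

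**Figure D1:**
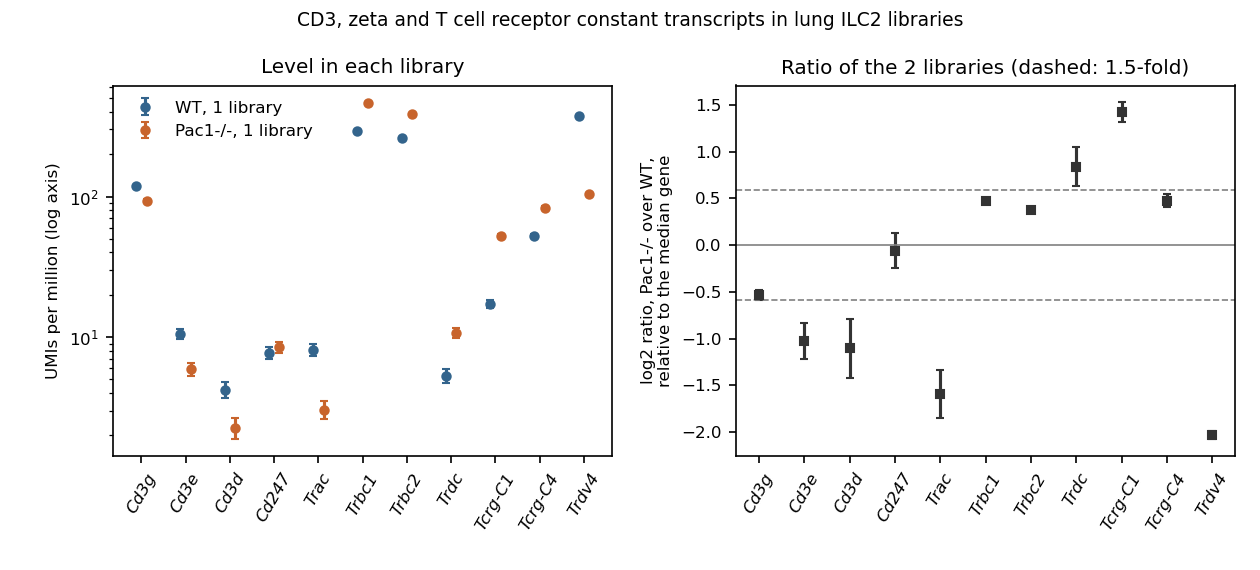
Level of each gene in the WT and Pac1-/- libraries in CPM on a log axis (left), and log2 ratio of Pac1-/- over WT relative to the median gene (right), with 95% counting intervals and dashed lines at 1.5-fold. Cd3e, Cd3d and Trac lie below the lower line, Trdc and Tcrg-C1 above the upper one, and Trdv4, a delta variable segment shown for comparison, lies lowest.

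Cd3e, Cd3d and the alpha constant gene stood lower in the Pac1-/- library, and the delta and gamma constant genes higher. Ratios were taken relative to the median of the 12427 genes with at least 50 UMIs over both libraries, which stood 0.19 higher in Pac1-/- on the log2 scale, and a gene was counted as different when it lay at least 1.5-fold from that median. Of the 9 members 3 lay lower, against 12.8% of all genes compared, and 2 lay higher, against 8.22% of all genes. The median of the members was -0.06. Trac had the lowest ratio, with a log2 ratio of -1.59 (-1.85 to -1.34), followed by Cd3d at -1.10 (-1.42 to -0.79) and Cd3e at -1.02 (-1.22 to -0.83). Cd3g, at -0.53 (-0.58 to -0.48), lay on the lower side and short of 1.5-fold. Cd247, whose chain also serves the NK cell receptors CD16 and NKp46, was at -0.06 (-0.25 to 0.13), an interval that includes 0, and its ratio changed sign to 0.13 when the shift of the median gene was left in.

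Tcrg-C1 had the highest ratio, with a log2 ratio of 1.42 (1.31 to 1.53), and 102 of the genes compared had a higher one. Trdc was at 0.84 (0.64 to 1.04), and much of this rested on few cells. Over all cells Trdc was at 5.28 CPM in WT and 10.7 in Pac1-/-. Outside the 5 WT and 40 Pac1-/- cells with at least 5 UMIs of Trdc, described below, it was at 4.79 and 5.88. Those cells were chosen by Trdc itself, so these values are a description only. The beta constant genes were on the higher side, Trbc1 at 0.47 (0.45 to 0.50) and Trbc2 at 0.38 (0.35 to 0.41), and the ratio of Trbc1 passed 1.5-fold when the shift of the median gene was left in (0.66). Of the other gamma constant genes Tcrg-C4 had 2858 UMIs in WT and 4840 in Pac1-/- (0.48, 0.41 to 0.54), Tcrg-C2 had 32 and 57 UMIs, and Tcrg-C3 had 1 and 1. By the 1.5-fold rule directions thus differed within the TCR constant genes, with Trac lower, Trdc and Tcrg-C1 higher and the beta genes not counted, and Trac and Trdc, neighbours on chromosome 14, lay on opposite sides.

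The beta constant genes also led in the share of cells with a UMI. At 1500 UMIs Trbc1 was detected in 31.0% (29.9 to 32.0) of the WT library and 42.3% (41.1 to 43.5) of the Pac1-/- library, and Trbc2 in 30.9% (29.8 to 31.9) and 40.4% (39.2 to 41.6). Cd3g was found in 14.1% (13.3 to 14.9) and 10.4% (9.63 to 11.1). Tcrg-C1 was found in 2.28% and 6.81% of cells, and the other members in 0.274% to 1.31%. These shares depend on depth. Without thinning Trbc1 was found in 59.97% and 71.9% of cells, Trbc2 in 61.7% and 74.3%, Cd3g in 33.5% and 26.7% and Tcrg-C1 in 8.38% and 22.5%, and at least 1 of the 9 genes in 84.8% and 91.0%. The share was higher in WT for Cd3g, Cd3e, Cd3d and Trac and higher in Pac1-/- for the other 5 members, with overlapping intervals for Cd3d (0.397 to 0.743 and 0.163 to 0.433) and Cd247 (0.785 to 1.25 and 0.873 to 1.40).

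Per cell the transcripts were few. Of the WT cells 1212 had 1 UMI of Cd3g, 680 had 2, 627 had 3 or 4, and 290 had 5 or more, with a highest count of 15. In Pac1-/- 669 cells had 1 UMI of Cd3g and 353 had 5 or more, with a highest count of 21. These counts are not thinned, and the Pac1-/- cells were deeper. Trbc1 reached 35 UMIs in a WT cell and 52 in a Pac1-/- cell. For Trdc 20 cells held 25.3% of its UMIs in WT and 28.7% in Pac1-/-, beside 19.02% and 25.7% for Cd3e, 19.5% and 21.4% for Cd3d and 3.36% and 5.09% for Cd3g, which had far more UMIs. Cd3d never passed 4 UMIs in a cell and Trac never passed 5.

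In droplet data free RNA can place a UMI in a cell that does not express the gene, so the members were also measured in barcodes that should lack them, namely barcodes with UMIs of at least 2 B cell, 2 stromal or 2 endothelial marker genes. There were 44 such barcodes in WT and 74 in Pac1-/-, of which 36 and 60 had the depth for thinning, with a median of 8005.5 and 4780.5 UMIs against 4184.5 and 5580 in all other cells. At 1500 UMIs Cd3g was found in 2.78% (0.07 to 14.5) of them in WT and in 3 of 60 in Pac1-/-, against 14.2% and 10.4% of all other cells. Trbc1 was found in 16.7% (6.37 to 32.8) and in 18 of 60, against 31.0% and 42.4%, and Trbc2 in 22.2% and in 18 of 60, against 30.9% and 40.5%. The shares were lower, but the intervals overlapped those of the other cells and the levels were closer. Cd3g was at 103 CPM in these barcodes and 119 in all other cells in WT and at 93.2 and 93.7 in Pac1-/-, Trbc1 at 262 and 293 in WT and 397 and 463 in Pac1-/-, and Tcrg-C1 at 12.9 and 17.2 in WT and 54.0 and 52.3 in Pac1-/-. No order between these barcodes and the other cells is therefore read from the shares. The barcodes were not free of ILC2 transcripts, as Il1rl1, the gene of ST2, was at 1017 CPM in WT and 864 in Pac1-/-, near the 1113 and 994 of all other cells. The clusters led by the B cell and antigen presentation genes Igkc and Cd74, with 27 cells in WT and 22 in Pac1-/-, had Cd3g at 7.90 and 37.1 CPM and Trbc1 at 261 and 196 CPM. Cd3g was thus lower in those clusters than in the library as a whole, and Trbc1 was lower in Pac1-/- (463 in the library) and near its library level of 292 in WT. As no set of barcodes gave a clean background, a share of cells with a UMI of Cd3g, Trbc1, Trbc2 or Tcrg-C1, here and by cluster or gene below, is given as detection and not as expression by each of those cells.

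**Figure D2:**
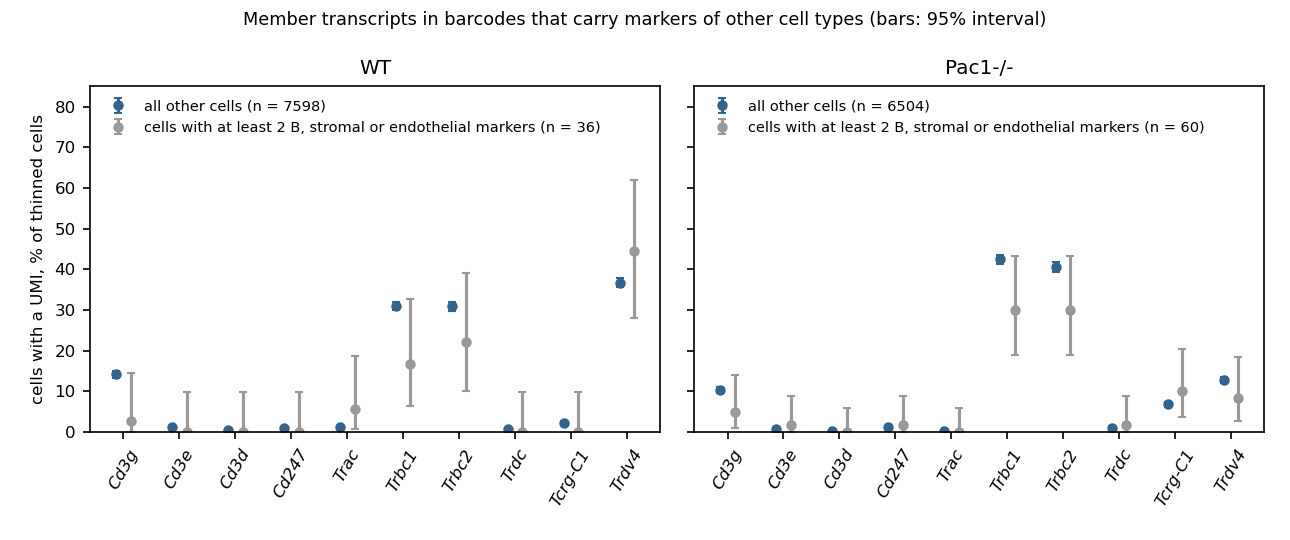
Share of cells with a UMI of each gene at 1500 UMIs per cell, in barcodes with at least 2 B, stromal or endothelial marker genes (grey) and in all other cells (blue), with 95% intervals. Cd3g stands at 2.78% in the 36 grey WT cells and at 14.2% in the blue ones, with intervals that overlap, and Trdv4 in WT stands at 44.4% and 36.7%.

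Detection of a CD3 gene said little about detection of a TCR constant gene. At 1500 UMIs 8.36% of WT cells had both, 7.03% a CD3 gene alone, 45.5% a TCR constant gene alone and 39.1% neither. In Pac1-/- these classes held 7.72%, 3.24%, 60.3% and 28.7% of cells. Among WT cells with a CD3 gene 54.3% (51.4 to 57.2) had a TCR constant gene, against 53.8% (52.6 to 55.1) of cells without, and in Pac1-/- the shares were 70.4% (66.9 to 73.7) and 67.7% (66.5 to 68.9). The ratio of these shares was 1.01 in WT and 1.04 in Pac1-/-. Without thinning the shares were 88.6% and 76.2% in WT and 96.2% and 87.4% in Pac1-/-, but there the cells with a CD3 gene were deeper, with a median of 6853.5 UMIs against 3817.5 in WT and 9294.5 against 5137 in Pac1-/-. The gamma and delta constant genes were found in 2.30% of CD3-positive and 3.004% of CD3-negative WT cells, and in 6.39% and 8.01% of Pac1-/- cells, with overlapping intervals in each library.

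The chains of a TCR were rarely seen as a set. Of the thinned WT cells 3911 (51.2%) had a beta constant gene without Trac and 51 (0.668%) had one with Trac, and in Pac1-/- there were 4260 (64.9%) and 14 (0.213%). Cd3g was found without Cd3e and without Cd3d in 1040 of the 1077 WT cells that had it and in 662 of 680 in Pac1-/-. Trdc and Tcrg-C1 were found together in 0 WT and 5 Pac1-/- thinned cells. At full depth the 3 CD3 genes were found together in 17 WT and 15 Pac1-/- cells, which were deep cells with a median of 26239 and 21401 UMIs, and all 17 and all 15 also had Il1rl1. The alpha and beta constant genes with the 3 CD3 genes were found in 5 WT and 2 Pac1-/- cells at full depth, and with Cd247 added in 1 and 0. Trdc, Tcrg-C1 and the 3 CD3 genes were together in 0 cells of each library, which allows a share of cells with these UMIs of up to 0.0357% in WT and 0.0423% in Pac1-/- (3 counts). These counts are limited by depth, since Cd3e, Cd3d, Cd247, Trac and Trdc were each found in under 6% of cells even without thinning.

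Among pairs of genes, Cd3e and Cd3g were found in the same cells more often than independent detection would give. In WT 31 thinned cells had both, where 13.1 cells would have both if the genes were independent, and Cd3e was found in 2.88% (1.96 to 4.06) of Cd3g-positive cells and 0.946% (0.726 to 1.21) of the rest. In Pac1-/- 16 cells had both, against 4.25 if independent, with Cd3e in 2.35% (1.35 to 3.79) and 0.424% of cells. Their chains form a dimer, as those of Cd3e and Cd3d do. Cd3d, the neighbour of Cd3g, was found with it in 6 WT cells against 5.93 if independent and in 3 Pac1-/- cells against 1.86. Cd247 was found with Cd3g in 13 WT cells against 10.7 and in 14 Pac1-/- cells against 7.56. Trdc and Cd3e were found together in few cells and still more than independence gives, in 5 WT cells against 0.573, with Trdc in 5.38% (1.77 to 12.1) of Cd3e-positive and 0.557% (0.402 to 0.752) of other cells. In Pac1-/- 2 cells had both against 0.450, and the intervals overlapped.

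Cd3g and the beta constant genes went together weakly or not at all. Cd3g and Trbc1 were found together in 310 WT cells against 334 if independent and in 292 Pac1-/- cells against 288, and Cd3g and Trbc2 in 354 against 333 and in 328 against 275. Trbc2 was thus found in 48.2% (44.4 to 52.1) of Cd3g-positive Pac1-/- cells and 39.5% (38.3 to 40.8) of the others, with intervals apart, whereas in WT the intervals overlapped (32.9%, 30.1 to 35.8, and 30.5%, 29.4 to 31.7). Trbc1 and Trbc2 were found together in 759 WT cells against 730 if independent and in 1158 Pac1-/- cells against 1123. Cd3g and Tcrg-C1 were found together in 12 WT cells against 24.5 and in 34 Pac1-/- cells against 46.3. In WT the interval of Tcrg-C1 in Cd3g-positive cells (1.11%, 0.577 to 1.94) lay below that in the others (2.47%, 2.11 to 2.88), and in Pac1-/- the intervals overlapped.

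**Figure D3:**
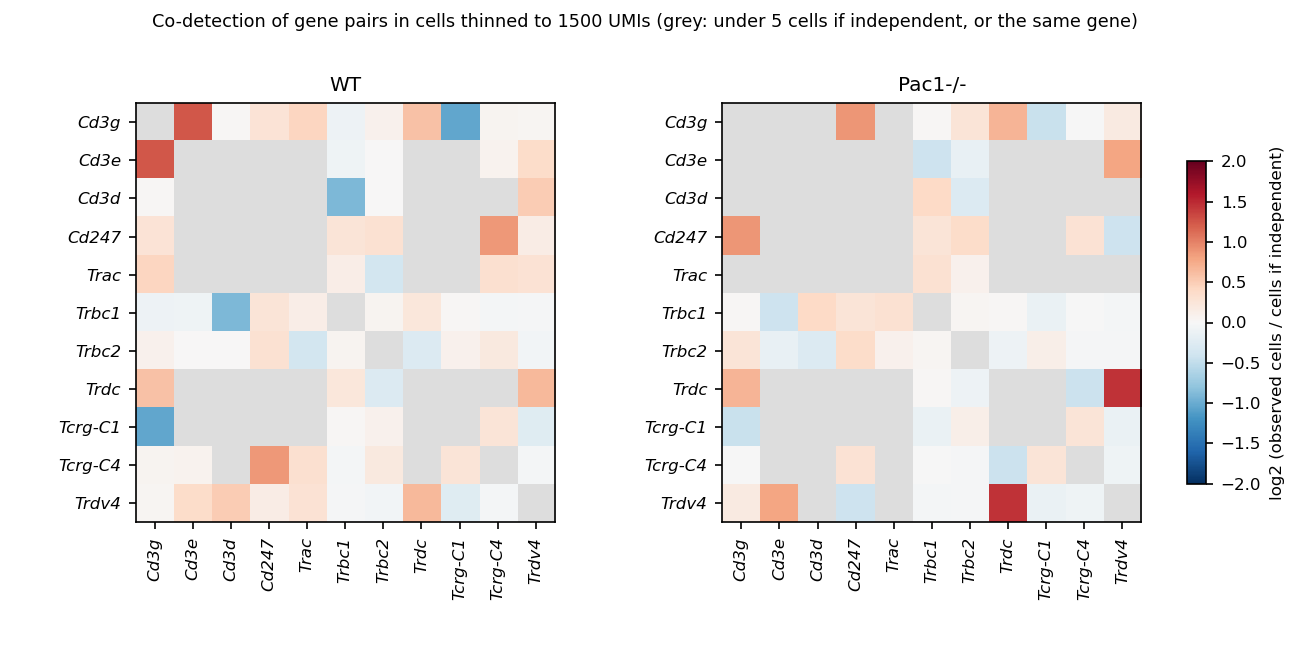
Log2 of the number of thinned cells with both genes over the number if detection were independent, for each pair in WT (left) and Pac1-/- (right); red means more and blue fewer cells, and grey marks pairs with under 5 cells if independent. The Cd3g and Cd3e pair in WT (31 cells against 13.1) and the Trdc and Trdv4 pair in Pac1-/- (25 cells against 9.19) stand out in red, and most pairs with Trbc1 or Trbc2 are near white.

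Of the variable and joining segments, which a complete receptor transcript would carry, Trdv4 gave most UMIs, gamma variable genes gave fewer and the others were near 0. The 260 segment genes in the files summed to 20995 UMIs in WT and 6809 in Pac1-/-, and Trdv4, a delta variable segment at chr14:54074905-54075515, gave 97.1% and 89.0% of them. The 35 beta variable genes had 9 and 17 UMIs, beside 30196 and 49527 UMIs of the beta constant genes. The 128 alpha variable genes had 62 and 36 UMIs, and the alpha, gamma, beta and delta joining and diversity genes had 0 in both libraries. A 3′ library reads little of the 5′ end where a joined variable segment lies, so these counts limit spliced variable segments less than they limit transcripts that end in one. Gamma variable genes had 522 and 685 UMIs (9.56 and 11.7 CPM), led in WT by Trgv2 (198 UMIs, 125 in Pac1-/-) and in Pac1-/- by Tcrg-V1 (203 UMIs, 88 in WT). Of the genes that join or precede receptors, Rag1 had 2 and 0 UMIs, Rag2 0 and 1, Dntt 0 and 0, and Ptcra 32 and 11.

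Trdv4 was at 373 CPM in WT and 104 in Pac1-/-, above any member in WT, and its log2 ratio was -2.03 (-2.08 to -1.99), lower than that of all but 75 genes compared. It lies 67335 bases from Trdc. At full depth 96.7% of the 5590 WT cells and 92.6% of the 2886 Pac1-/- cells with Trdv4 had no Trdc. Trdc was itself found in only 2.41% of all WT cells and 3.77% of all Pac1-/- cells at that depth. At 1500 UMIs Trdv4 was found in 57.4% (42.2 to 71.7) of Trdc-positive WT cells and 36.6% (35.5 to 37.7) of the others, and in 34.7% (23.9 to 46.9) and 12.5% (11.7 to 13.3) in Pac1-/-. Trdv4 and Trdc thus stood on opposite sides between the libraries and were found in the same cells more often than independent detection would give within each, with intervals apart. Gm30275 lies on the strand opposite Trdv4, and whether its reads were kept apart from those of Trdv4 is not known here.

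Cells with at least 5 UMIs of Trdc, chosen after the values were seen, numbered 5 in WT and 40 in Pac1-/-. The 40 Pac1-/- cells held 46.1% of the Trdc UMIs of the library, and their median depth was 17962 UMIs. Of these cells 39 had Trdv4, 39 had Il1rl1, 27 had Cd3g, 16 had Tcrg-C1, 11 had Cd3e and 0 had Cd3d. These counts are not thinned, and the library median was 5577 UMIs, so no enrichment is read from the counts. Trdv4 was at 289 CPM in the 40 cells and 101 in all other Pac1-/- cells. In the 5 WT cells, too few to rank genes, Trdv4 was found in all 5.

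To ask whether the members go with activation, their levels were compared between cells with and without a UMI of Il2 or Tnf, cytokines of activated lymphocytes, or of Actn2, which encodes an actin-crosslinking protein. A gene was counted when it differed at least 1.5-fold in the same direction in both libraries. None of the 9 members did so in the 578 WT and 503 Pac1-/- cells with Il2, where 0.226% of the 11058 genes compared were higher and 0.669% lower. Cd3g was at 115 CPM in Il2-positive WT cells and 119 in the rest (log2 ratio -0.05, -0.18 to 0.07), and at 68.7 and 96.2 in Pac1-/- (-0.49, -0.65 to -0.33). Nor did any member in the 955 and 576 cells with Tnf, where 0.172% of genes were higher and 0.687% lower. Cd3g was at 150 and 114 CPM there in WT (0.39, 0.29 to 0.49) and at 92.4 and 94.0 in Pac1-/- (-0.03, -0.16 to 0.10). The levels of Trbc1 and Trbc2 lay within 0.1 of equality on the log2 scale in all 4 of these comparisons. The share of Pac1-/- cells with Trbc2 did not follow its level (-0.02, -0.08 to 0.04), at 46.7% (42.6 to 50.9) of Tnf-positive and 39.8% (38.6 to 41.1) of other cells, so no order is read from it. Tcrg-C1 was at 13.5 CPM in Tnf-positive and 17.9 in other WT cells (-0.41, -0.73 to -0.10), and at 43.9 and 53.4 in Pac1-/- (-0.28, -0.47 to -0.10), lower in both libraries but by less than 1.5-fold.

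Cd3g stood higher in cells with Actn2 in both libraries. It was at 204 CPM in the 253 Actn2-positive WT cells and 116 in the rest (log2 ratio 0.82, 0.65 to 0.97), and at 194 and 91.9 in Pac1-/- with 126 positive cells (1.08, 0.88 to 1.28). At 1500 UMIs Cd3g was found in 27.3% (21.9 to 33.2) of Actn2-positive and 13.7% (12.9 to 14.5) of other WT cells, and in 27.8% (20.2 to 36.5) and 10.0% (9.30 to 10.8) in Pac1-/-. Depth was near equal, with medians of 4271 and 4451 UMIs in WT and 5788.5 and 5782.5 in Pac1-/-. Of all genes 1.92% were higher by the same count and 3.17% lower, and Cd247 was also counted as higher and Trdc as lower. Cd247 rested on 21 and 14 UMIs in Actn2-positive cells and Trdc on 5 and 7, and both changed with the setting, whereas Cd3g was counted under each of the 8 settings run. Cd3e was at 24.2 and 10.1 CPM in WT (1.26, 0.77 to 1.72) and at 7.17 and 5.89 in Pac1-/- (0.28, -0.94 to 1.28). Trbc1 did not follow Cd3g, with log2 ratios of -0.16 (-0.30 to -0.02) and -0.13 (-0.26 to 0.00), and in WT it was found in 23.3% (18.3 to 29.0) of Actn2-positive and 31.2% (30.2 to 32.3) of other cells. Trbc2 had 0.05 (-0.09 to 0.19) and 0.20 (0.07 to 0.33). S100a6, a calcium-binding protein gene, was higher in the same cells, with log2 ratios of 0.77 and 1.19. The activation list went both ways there. Lgals3 (1.42 and 1.05), Anxa2 (1.04 and 1.20) and Tnf (0.66 and 0.42) were also higher in both libraries, as was Egr1 by less. Cd69 was higher in WT (0.18) and at equality in Pac1-/- (0.0005). Lower in both were Areg (-0.52 and -0.67), Csf2 (-0.35 and -0.80), Nr4a1 (-0.34 and -0.51), Il5 (-0.25 and -0.42) and Il2ra (-0.18 and -0.29). Il2, Il13 and Tnfrsf9 differed in direction between the libraries.

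**Figure D4:**
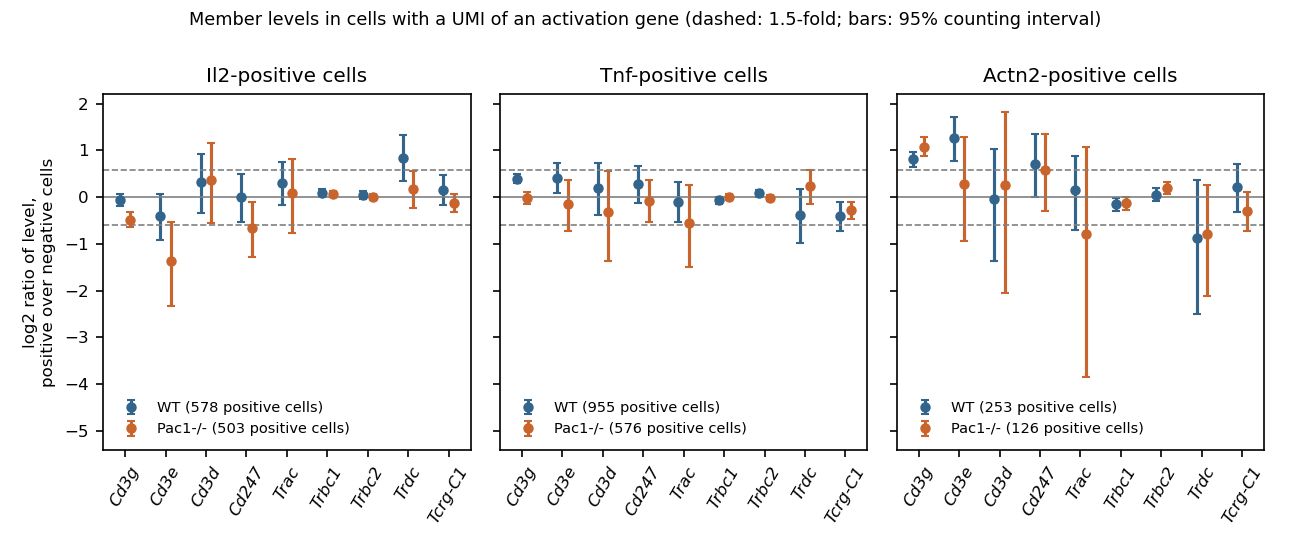
Log2 ratio of the level of each member in cells with a UMI of Il2, Tnf or Actn2 over cells without, in WT (blue) and Pac1-/- (orange), with 95% counting intervals and dashed lines at 1.5-fold. Cd3g lies above the upper line in Actn2-positive cells of both libraries (0.82 and 1.08) and inside the lines in Il2-positive and Tnf-positive cells, and Trbc1 and Trbc2 lie near 0 throughout.

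The cells with Actn2 and the cells with Il2 or Tnf were then taken apart. Cd3g was found in 27.5% (21.3 to 34.5) of the 189 WT cells with Actn2 and neither cytokine, in 12.99% (10.1 to 16.4) of the 462 with Il2 alone, in 17.2% (14.6 to 19.96) of the 809 with Tnf alone and in 13.1% (12.3 to 13.98) of the 6013 with none of the genes. In Pac1-/- the shares were 30.1% (21.5 to 39.9) of 103 cells, 7.46% (5.16 to 10.4) of 429, 10.4% (7.85 to 13.4) of 501 and 10.2% (9.38 to 11) of 5446. Actn2 without the cytokines thus went with Cd3g in both libraries, Tnf alone did so in WT, and the intervals for Il2 alone overlapped those of cells with none. Cells with both Il2 and Tnf had Cd3g in 21.6% (13.9 to 31.2) of 97 in WT and 11.3% (4.66 to 21.9) of 62 in Pac1-/-, also overlapping, and cells with Actn2 and a cytokine in 26.6% (16.3 to 39.1) of 64, apart from cells with none, and 17.4% (4.95 to 38.8) of 23, overlapping. Of the 4 other members followed by these classes, 2 had an interval apart from that of cells with none. Tcrg-C1 was in 0.62% (0.20 to 1.44) of WT cells with Tnf alone and 2.41% (2.04 to 2.83) with none, and Trbc2 in 46.7% (42.3 to 51.2) and 39.6% (38.3 to 40.9) in Pac1-/-. No order is read from this share of Trbc2, as its share in Tnf-positive cells did not follow its level. Read the other way, Actn2 was found in 6.30% (4.98 to 7.84) of WT cells with a CD3 gene and 2.77% (2.38 to 3.20) without, and in 4.86% (3.41 to 6.70) and 1.56% (1.26 to 1.91) in Pac1-/-. In the same CD3-positive cells Cd247 and Trdc were the 2 of the 6 other members at least 1.5-fold higher in both libraries, where 0.244% of 11056 genes were, and 0 members were lower, where 0.751% of genes were. For Cd247 the log2 ratios were 0.61 (0.26 to 0.95) and 0.98 (0.65 to 1.296), and for Trdc 0.82 (0.41 to 1.21) and 1.09 (0.80 to 1.36). In thinned cells the shares rested on few cells and their intervals overlapped, with Cd247 in 1.19% (0.65 to 1.99) of WT cells with a CD3 gene and 0.96% (0.74 to 1.23) without, and in 1.94% (1.07 to 3.24) and 1.01% (0.77 to 1.3) in Pac1-/-. With Cd3g alone in place of any CD3 gene, Trdc and Cd3e were the members counted and Cd247 was not, as its WT log2 ratio was 0.51 (0.13 to 0.87).

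Clusters were made in each library without the CD3 and TCR genes, and the share of cells with Cd3g differed between them. Over the 10 WT clusters with at least 50 thinned cells its share ranged from 6.24% to 26.5%. The lowest was in cluster 1, led by Il5, Akap12 and Calca. The highest was in cluster 3, led by Scgb1a1, Tnfsf8, Lgals1, Scgb3a2, S100a6 and Trim34a, whose interval (23.6 to 29.5) overlapped those of clusters 8 and 10. Cd3g stood at 50.7 CPM in cluster 1 and 255 in cluster 3. Over the 12 Pac1-/- clusters its share ranged from 7.32% in cluster 8, led by Dnajb1 and Hspa1b, to 24.8% in cluster 10. The leading genes of cluster 10 were Hbb-bs, Hba-a2, Lgals1, Lgals3, Actn2 and Hba-a1. The WT cluster 3 held 22.0% of the Cd3g-positive cells and 11.7% of all cells, and the Pac1-/- cluster 10 held 11.5% and 4.78%, so most cells with Cd3g lay outside them. Actn2 was found in 6.82% (5.25 to 8.67) and 10.5% (7.35 to 14.4) of cells there, the highest shares among clusters of this size, although the intervals overlapped those of other clusters in both libraries, such as WT cluster 8 (4.29 to 8.24) and Pac1-/- cluster 12 (3.21 to 17.7), and Actn2 is among the genes that define the Pac1-/- cluster. At the finer resolution of 2 the WT cluster with most Cd3g had it in 29.5% of cells and Actn2 in 5.36% (2.80 to 9.17), and the one with most Actn2 had 27.2% and 11.6% (6.88 to 17.9), with overlapping intervals. None of the 6 T cell markers was among the 6 leading genes printed for a cluster of this size, a list from which the CD3 and TCR genes had been left out, whereas Il17a, which was listed as a marker of gamma delta T cells, led with others in WT cluster 4 and Pac1-/- cluster 12, and Gzma, listed for NK cells, in the latter.

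Trbc1 and Trbc2 were found throughout. Trbc1 ranged from 26.3% to 38.7% of cells over the WT clusters and from 31.5% to 58.6% over the Pac1-/- clusters, and Trbc2 from 21.9% to 38.2% and from 28.4% to 60%. The highest shares of both in Pac1-/- were in cluster 12, 70 cells led by Ifi27l2a, Ms4a4b, Il17a and Gzma. Trbc1 was found in 58.6% (46.2 to 70.2) of them and Cd3g in 14.3% (7.07 to 24.7). The Trbc1 interval overlapped those of other clusters, such as cluster 6 (46.5 to 54.4). So did that of Trbc2 (47.6 to 71.5), as with cluster 2 (42.7 to 49.3). Trbc2 was at 730 CPM in cluster 12 against 386 in the library. Trac was at 9.63 CPM there against 3.05 in the library, the highest of the 12 Pac1-/- clusters of this size, Cd3e at 6.42 against 5.88 and Cd247 at 0 against 8.43, and none of these 3 genes was found in the 70 cells when thinned. Trac and Cd3e are each too few UMIs there to read an order from. Il1rl1 was found in 52.9% (40.6 to 64.9) of these cells and Gata3 in 67.1%. The part of T or NK cells in this cluster was not tested. In WT cluster 1, with the lowest Cd3g, Trbc2 was also lowest (21.9%, 19.6 to 24.4), and Trbc1 was at 29.7%. The Trbc2 interval overlapped that of WT cluster 6 (23.8 to 30.2). The level of Tcrg-C1 ranged from 6.16 to 49.8 CPM over the WT clusters and from 18.3 to 115 CPM over those of Pac1-/-. Within clusters with at least 10 Actn2-positive cells, Cd3g was found in a higher share of Actn2-positive than of other cells in 7 of 8 WT clusters and 4 of 5 Pac1-/- clusters. The ratio of the shares ran from 0.834 to 2.25 in WT and from 0.838 to 3.48 in Pac1-/-, and the intervals were apart in 1 cluster of each library.

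**Figure D5:**
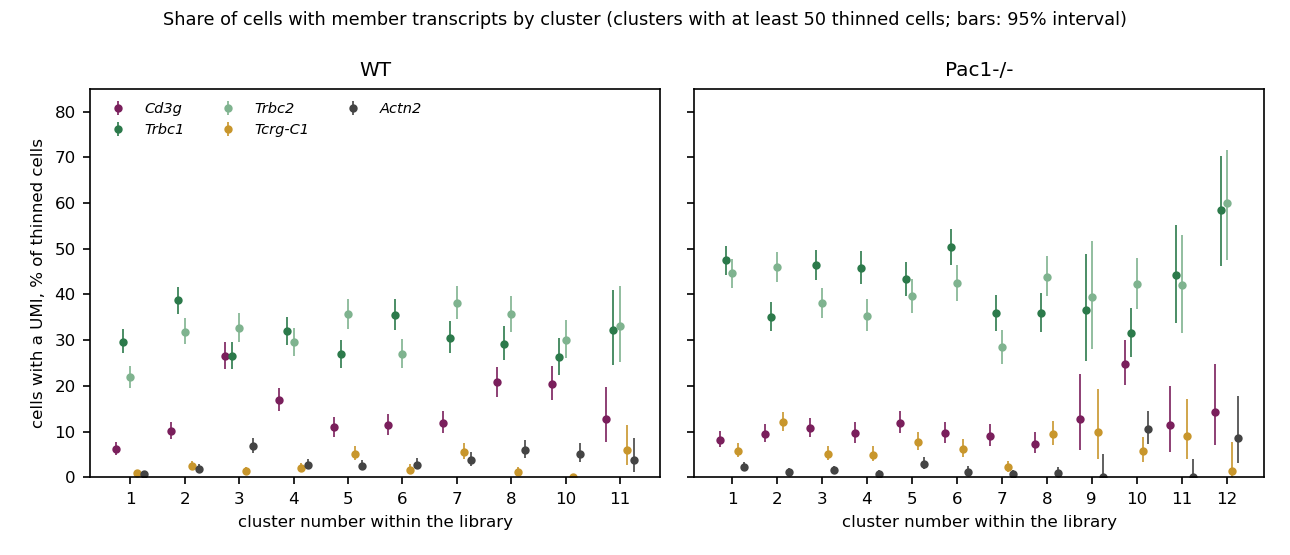
Share of cells, at 1500 UMIs per cell, in which Cd3g, Trbc1, Trbc2, Tcrg-C1 and Actn2 were detected, in each cluster with at least 50 thinned cells, numbered within its library, with 95% intervals. Cd3g has its highest shares in WT cluster 3 (26.5%) and Pac1-/- cluster 10 (24.8%), as does Actn2, with intervals that overlap those of some other clusters in both libraries, and Trbc1 and Trbc2 stand above 20% in all clusters shown.

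The T cell markers were too sparse to set T cells apart. Of the T cell markers Cd4 had 1 UMI in WT and 1 in Pac1-/-, Cd8a 0 and 0, Cd8b1 1 and 1 and Cd5 12 and 13. Themis (646 and 1172 UMIs) and Lef1 (765 and 1439 UMIs) were detected more widely. Barcodes with UMIs of at least 2 of these 6 genes numbered 86 in WT and 220 in Pac1-/-, of which 80 and 215 carried Lef1 with Themis, and Il1rl1 was found in 100% and 98.6% of them. They were deep cells, with medians of 15053 and 18022.5 UMIs against 4422.5 and 5719.5. At that depth, and with Il1rl1 at 864 CPM or more in the barcodes with B cell, stromal or endothelial genes, its detection does not set cell types apart, in this set or in the other sets of deep cells. Whether these barcodes were T cells was not tested. In them 0 of the 9 members were at least 1.5-fold higher or lower in both libraries, where 0.353% of 11057 genes were higher and 1.57% lower. As these barcodes were mostly chosen by Lef1 with Themis, this count does not show whether the members go with T cells. Cd3g was at 131 CPM there and 119 elsewhere in WT, and at 89.6 and 94.2 in Pac1-/-. These barcodes held from 2.43% to 5.58% of each member's UMIs in WT and from 7.05% to 13.9% in Pac1-/-. Deep cells hold a larger share of all UMIs than of cells, so no concentration of the members is read from these ranges.

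The barcodes with Cd4, Cd8a, Cd8b1 or Cd5 were 12 in WT and 14 in Pac1-/-, a set chosen after the values were seen. Cd3g was found in 4 and 4 of them, Cd3e in 2 and 1, Trac in 2 and 2, and Il1rl1 in 12 of 12 and 13 of 14. With these barcodes left out the log2 ratio of each member between the libraries kept its direction. Of the genes that mark gamma delta T cells making IL-17, Il23r had 0 UMIs in both libraries, Sox13 4 and 8 and Blk 7 and 16. Il17a had 189 and 426 UMIs and Cd163l1 44 and 24. Of the NK cell genes Ncr1 had 5 and 5 UMIs, Klrb1c 4 and 7, Eomes 10 and 17 and Gzma 42 and 106. Over the whole lists, of the 10 gamma delta markers 6 had the counts to be compared, with 1 higher (Il17a) and 2 lower (Trdv4 and Cd163l1) in Pac1-/-, and of the 7 NK markers 2 had, both higher (Gzma and Nkg7), beside 8.22% of all genes higher and 12.8% lower. The part of T or NK cells in the levels of the members was not tested beyond these counts.

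The genes that signal downstream of CD3 in T cells ranged widely in level, from 5 UMIs in WT and 11 in Pac1-/- for Trat1 to 51443 and 49411 for Ptprc. Of 20 listed genes 18 had the counts to be compared, of which 1 was at least 1.5-fold higher and 5 lower in Pac1-/-, beside 8.22% and 12.8% of all genes, with a median log2 ratio of -0.13. Among the lower ones Lcp2, the adaptor SLP-76, was at 207 CPM in WT and 150 in Pac1-/- (-0.65), Grap2, its partner GADS, at 75.1 and 54.9 (-0.64), Ubash3a at 43.3 and 29.6 (-0.74) and Sit1 at 16.97 and 11.6 (-0.73). Cd28, a costimulatory receptor, was the higher one (5.84 and 10.9, 0.71). Lck was at 14.9 and 17.7 CPM (0.07), Zap70 at 66.8 and 61.6 (-0.30) and Lat at 103 and 122 (0.06), so Zap70 and Lat stood above Cd3e, Cd3d and Cd247 in level in both libraries. Of the adaptors of activating receptors, Hcst, which encodes DAP10 and has no ITAM, was at 388 and 179 CPM (-1.30), and of the ITAM adaptors, genes of myeloid and NK cells, Fcer1g was at 1.39 and 2.42 CPM (76 and 141 UMIs) and Tyrobp at 0.95 and 1.303 (52 and 76 UMIs). Fcer1g was counted as higher in Pac1-/- (0.61, 0.20 to 1.03) and Tyrobp was not (0.26, -0.26 to 0.80).

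Of 10 transcription factors that act on the CD3 and TCR loci in T cells, 1 was at least 1.5-fold higher and 1 lower in Pac1-/-, near the 8.22% and 12.8% of all genes, with a median of -0.24. Runx3 was at 242 and 139 CPM (-0.99) and Lef1 at 14.02 and 24.7 (0.63). Bcl11b, which ILC2s and T cells both need, was at 209 and 311 (0.39), Gata3 at 1206 and 1035 (-0.41), Ets1 at 1199 and 934 (-0.55) and Tcf7 at 22.1 and 20.3 (-0.31). Of the 15 activation genes listed, 7 were lower and 1 higher in Pac1-/-, beside 12.8% and 8.22% of all genes, with a median of -0.56. Actn2 itself was at 21.2 and 14.3 CPM (-0.76), Il2 at 65.9 and 71.1 (-0.08), Tnf at 118 and 91.3 (-0.56), and Lgals3 at 9.99 and 91.6 (3.01).

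The stretch of 250 bases before the RefSeq start of each CD3 gene is shown, as the 3 genes lie together and differ in level by over an order of magnitude. The sequences are from RefSeq on GRCm38.p6, read 5′ to 3′ on the strand of the gene. The RefSeq start of Cd3e differs from the GENCODE one given above, so the last bases of its stretch, with part of the match nearest the start, lie within the gene as GENCODE has it. Capitals mark matches, on either strand, to short motifs of factor families. The motif searched for RUNX proteins was TGTGGT. For GATA factors the letters AGATAA were used. E proteins were given CANNTG, and the ETS family was searched as GGAAGT.
Cd3g (chr9:44980432-44980681, minus strand): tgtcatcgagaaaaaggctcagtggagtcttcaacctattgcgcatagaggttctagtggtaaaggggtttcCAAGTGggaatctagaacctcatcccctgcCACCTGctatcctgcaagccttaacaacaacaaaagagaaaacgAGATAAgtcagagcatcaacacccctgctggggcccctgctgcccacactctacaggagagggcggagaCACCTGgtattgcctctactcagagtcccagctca
Cd3e (chr9:45009612-45009861, minus strand): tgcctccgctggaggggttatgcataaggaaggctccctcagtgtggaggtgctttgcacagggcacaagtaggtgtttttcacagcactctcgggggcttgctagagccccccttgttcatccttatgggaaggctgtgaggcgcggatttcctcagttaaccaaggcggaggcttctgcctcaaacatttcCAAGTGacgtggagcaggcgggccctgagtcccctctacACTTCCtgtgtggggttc
Cd3d (chr9:44981536-44981785, plus strand): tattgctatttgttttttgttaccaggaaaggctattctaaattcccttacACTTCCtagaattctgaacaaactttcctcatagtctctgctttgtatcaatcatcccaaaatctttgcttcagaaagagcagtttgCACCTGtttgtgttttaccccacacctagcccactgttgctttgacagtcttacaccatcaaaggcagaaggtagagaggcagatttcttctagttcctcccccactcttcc
Cd3g had 3 matches for E proteins and 1 for GATA factors, Cd3e and Cd3d each had 1 for E proteins and 1 for the ETS family, and the RUNX letters were in none of the stretches. Of 32817 promoters of this length 66.2% held the E protein letters, 19.7% the ETS letters, 14.04% the RUNX letters and 9.99% the GATA letters. A match is a description of the letters and not of binding.

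Genes whose pattern was most like the CD3 genes were sought by the ratio of level in thinned cells with at least 2 of Cd3g, Cd3e and Cd3d over cells with none, among 8609 genes, ranked by the weaker library. Only 37 WT and 18 Pac1-/- cells had 2 or more, so each gene rested on few UMIs. Dtl, a gene of DNA replication control, led with 10 and 5 UMIs (log2 ratios 3.15 and 2.58), and Ankrd28, Dus2, Wwtr1, Fan1, Gm26910, Magi1, Zfp930, Msmo1 and Ppip5k1 followed on 2 to 13 UMIs. In cells with Cd3g against those without, Dtl had log2 ratios of 0.13 and -0.21. Genes at the other end had 0 UMIs in the cells with at least 2 CD3 genes and were tied, so no order is read among them.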

How the data were processed

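Lung ILC2 libraries of 1 WT and 1 Pac1-/- pool were made by the authors with a droplet 3′ kit, and the submitters' processing notes name Cell Ranger 6.1.1 with mm10 (the file headers name 4.0.0). The deposited values are raw UMI counts per gene and barcode. The thresholds of the authors' own cell filter are not given in the sources used here. For each genotype the paper reports fewer cells after its filtering than the 8394 WT and 7087 Pac1-/- barcodes used here. Barcodes with at least 500 genes and at most 10% mitochondrial UMIs were kept. Levels were summed UMIs in CPM with exact Poisson intervals, ratios had exact conditional binomial intervals and shares had Clopper-Pearson intervals, all at 95%. The limit for a count of 0 was taken as 3 counts. Cells under 1500 UMIs (760 in WT, 523 in Pac1-/-) were left out of thinned shares. Clusters were made within each library (2000 variable genes, 30 components, 15 neighbours, Leiden resolution 1) without CD3, TCR and mitochondrial genes, with Python 3.11.15, scikit-learn 1.9.0 and leidenalg 0.10.2, and were called by number and leading genes. No doublets were removed in the main values. A simulated-doublet score, at 0.8% per 1000 barcodes, marked 730 and 538 barcodes, which were left out as an alternative. The calculations were tested on simulated data. PCR copies were collapsed by UMI, and intervals cover counting error only. The other alternatives were thinning to 1000 or 2500 UMIs, another random draw, a stricter cell filter, other gene minimums, no centring on the median gene, barcodes with T cell genes left out and Leiden resolution 2. The genes named were the 9 members, the fixed lists of signalling, regulator, activation and marker genes, and the 10 highest genes in the ranking by CD3 detection (the 5 lowest, tied at 0 UMIs, are not named); the targeted gene Dusp2, paralogs and variable segments of the members and leading genes of clusters were also named, the last after their values were seen. The members and lists were chosen with earlier results of these data known. Some listed genes are counted in their lists and not reported here by name.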

Additional observations from a re-analysis of the deposited data

Results flagged for a closer look

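Barcodes outside the cell filter, which no comparison above uses, carried transcripts of the members. Summed over the 9 genes, the level was 517.1 CPM in the 2472 WT barcodes outside the filter (829 UMIs) and 736.5 in the 2408 Pac1-/- barcodes (1432 UMIs), against 725 and 1025 inside it. Cd3g was at 101 (86.1 to 118) outside and 119 inside in WT, and at 68.4 (57.3 to 81.1) and 93.7 in Pac1-/-. Trdv4 went the other way, at 545 outside and 373 inside in WT and at 170 and 104 in Pac1-/-.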

How the results depend on the processing

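No paired analysis was possible because each genotype is 1 library. Between the libraries Cd3e, Cd3d and Trac stayed at least 1.5-fold lower and Trdc and Tcrg-C1 at least 1.5-fold higher in Pac1-/- under all 8 settings run, and without centring on the median gene Trbc1 joined the higher genes. No setting left out the cells with at least 5 UMIs of Trdc as a set. The ratio of TCR constant detection in CD3-positive over CD3-negative cells was 1.105 in WT and 1.148 in Pac1-/- when at least 2 CD3 genes were required. Under that requirement 3 of the 6 other members, Cd247, Trac and Trdc, were at least 1.5-fold higher in both libraries and 0 were lower. Only 37 WT and 18 Pac1-/- cells met it. The median log2 ratio of the members was 0.51 in WT and 0.74 in Pac1-/-, against -0.05 and -0.10 for all 10854 genes compared. The members counted in Actn2-positive cells changed with the setting apart from Cd3g, whose log2 ratio ran from 0.68 to 0.98 in WT and from 1.07 to 1.44 in Pac1-/-. The number higher was 1, Cd3g, at 1000 or 2500 UMIs, under the stricter filter and without barcodes with Cd4, Cd8a, Cd8b1 or Cd5. The number lower was 0 at 2500 UMIs, with doublets removed, without T-marked barcodes and without barcodes with Cd4, Cd8a, Cd8b1 or Cd5. At 1000 UMIs 1 member, Cd3e, was lower in Il2-positive cells, and with doublets removed 1, Cd3d, was higher in T-marked barcodes. The log2 ratio of Cd247 in Actn2-positive cells was -0.58 in WT and -0.20 in Pac1-/- at 1000 UMIs, against 0.72 and 0.59. That of Trdc was 0.63 in Pac1-/- with another random draw, against -0.79, and 0.057 in WT without T-marked barcodes, against -0.87. The causes of these changes were not tested, and Cd247 and Trdc rest there on under 25 UMIs. In Cd3g-positive over Cd3g-negative cells the ratio of Cd3e detection ran from 2.27 to 5.36 in WT and from 3.78 to 7.05 in Pac1-/-, and that of Tcrg-C1 from 0.451 to 0.698 in WT and from 0.712 to 1.07 in Pac1-/-, so the latter crossed 1. At least 3 of the T cell genes were found in too few barcodes for a value. The barcodes with Cd4, Cd8a, Cd8b1 or Cd5 were left out as an alternative chosen after seeing the data.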

Other observations

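Cells with at least 3 UMIs of Il17a, a cytokine of gamma delta T cells and of activated innate lymphoid cells, were looked at after the values were seen. There were 20 in WT and 19 in Pac1-/-, and they held 79.9% and 95.3% of the Il17a UMIs. Il1rl1 was found in 20 of 20 and 19 of 19, Trdc in 0 and 0, Cd3d in 0 and 0, Cd3e in 2 and 0, Cd3g in 9 and 7 and Trbc1 in 16 and 17, at a median of 13873 and 10362 UMIs.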
